A study of Homo sapiens with 15 samples.

Results

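Ov4Carbo4 and Ov4Carbo7 are lines that were each grown from a single cell of Ov4Carbo, a carboplatin-selected derivative of OVCAR4, and they were compared with each other here. The comparison took the 3 samples of each line by their labels, 6 of the 15 samples of the study, over all 16604 genes of the deposited table. OVCAR4 is an established human cell line from a high-grade serous carcinoma of the ovary. The other lines were the parental line (Ovcar4Parental, labelled sensitive to both drugs), Ov4Cis, made by culture in rising cisplatin, and Ov4Carbo itself, made by culture in rising carboplatin. Both clones carry the label carboplatin resistant, both share the history of Ov4Carbo up to the cloning, and both were grown in DMEM with serum. Each is 1 clone with 3 biological replicates, so a difference between them is a difference between these clones and cannot be told apart from any other way in which 2 cells of the same population differ. The labels used here do not say whether carboplatin was present at harvest, and no measure of the degree of resistance was analysed here.

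Carboplatin and cisplatin bind DNA and crosslink it. A cell can withstand them by taking up less drug, by binding it to thiols such as glutathione, by exporting it, by repairing the crosslinks, or by tolerating the damage without dying. A population under selection can hold cells that differ in these respects and in others, and a line grown from 1 cell carries forward the state and genome of that cell. High-grade serous ovarian cancer lines commonly express epithelial adhesion genes together with some mesenchymal ones, and the transcription factor PAX8 marks their lineage.

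The values are log2 RPKM (reads scaled to gene length and library size, on a log2 scale) after the authors' conditional quantile normalization, and a difference of 1 is a 2-fold difference in RPKM. The sample medians were 2.77 in every sample and 13681 to 13712 genes lay above log2 RPKM 0 in the 6 samples. The upper values follow ranks shared by all samples, so a difference in total RNA between the clones is not measurable, and the depth behind each value is unknown. In bulk RNA, fewer cells with a transcript and less of it per cell cannot be told apart. All 6 samples belong to the same series of numbers in the sample titles. Ov4Carbo is split, with replicate 1 in the series of the clones and replicates 2 and 3 in the other. All samples of Ovcar4Parental and Ov4Cis are in that other series. A difference between a clone and these lines therefore cannot be told apart from one between the series. Replicate 1 of Ov4Carbo stood apart from its other replicates, so values of Ov4Carbo are given by replicate where they are used. The labelled cell type was checked on PAX8, at 5.74, 5.91 and 5.91 in Ov4Carbo4 and 6.87, 6.68 and 6.68 in Ov4Carbo7. PAX8 was 1 of 10 serous lineage markers measured, of which 5 were called lower and 2 higher in Ov4Carbo7. ESR1, PGR and CLDN6 were not in the table. Of the blood markers PTPRC, CD3E, CD68, HBB and ITGAM and the fibroblast markers PDGFRA, DCN and FAP, none was in the table. The table held 2 other blood markers, 1 called higher and 1 lower in Ov4Carbo7, and 5 other fibroblast markers, 2 of them called higher, and the called ones had means below 1 in both clones.

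The clones differed far more than their replicates did. The root-mean-square difference per gene was 0.34 within Ov4Carbo4, 0.39 within Ov4Carbo7 and 1.26 between them, against 1.05 and 1.03 from each of them to Ov4Carbo. Called genes are those with a limma adjusted p below 0.05 and means at least 1 log2 unit apart. They numbered 3478, or 20.9% of those tested, with 1841 (11.1%) higher and 1637 (9.86%) lower in Ov4Carbo7. In 3468 of them all 3 values of a clone lay above all 3 of the other, a separation found in 67.3% of all genes. At the adjusted p alone the number was 8484 (51.1%). The all-gene median difference was -0.05, which the normalization to equal sample medians holds near 0. Of the called genes 1353 differed by at least 2 log2 units and 327 by at least 4. Many were low in both clones, and 1339 called genes had both means under log2 RPKM 1. On the log2(RPKM + 1) scale, which shrinks such differences, 1746 genes (10.5%) were called, 977 higher (5.88%) and 769 lower (4.63%).

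**Figure D1:**
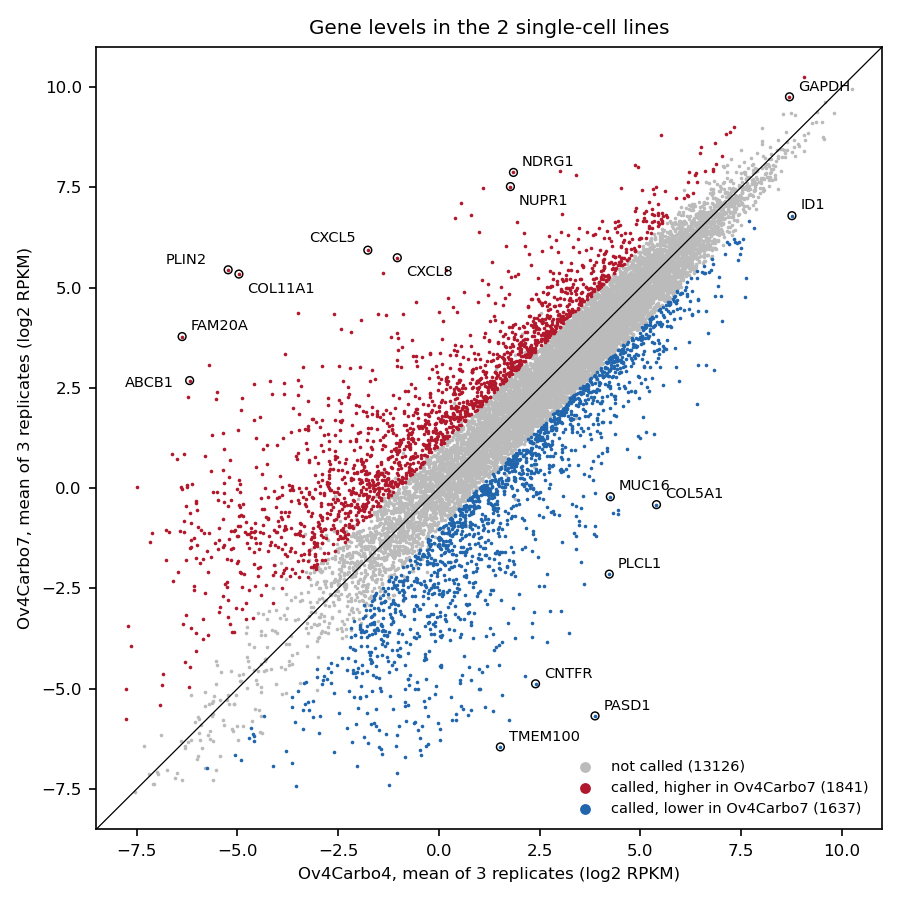
Mean log2 RPKM of each of the 16604 genes in Ov4Carbo4 (x axis) and Ov4Carbo7 (y axis), each the mean of 3 replicates; the line marks equal levels. Red points are the 1841 genes called higher and blue points the 1637 called lower in Ov4Carbo7, with 16 genes of the text circled, and the widest spread lies where 1 clone is near the lowest values.

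The largest rise in Ov4Carbo7 over Ov4Carbo4 was that of PLIN2 (ENSG00000147872, chromosome 9), the coat protein of cytoplasmic lipid droplets. It read -4.95, -6.00 and -4.74 in Ov4Carbo4 and 5.47, 5.69 and 5.18 in Ov4Carbo7. The first 3 values are those of a gene with hardly any reads and the last 3 those of a well expressed gene, with no overlap. The difference was 10.68 (SE 1.28, adjusted p = 2.38e-05), which shrank to 5.44 when 1 was added to each RPKM. Ov4Carbo spanned both states, at 2.39 in replicate 1 and -3.37 and -4.35 in replicates 2 and 3. COL11A1 (ENSG00000060718, chromosome 1), a fibrillar collagen chain, read -4.47, -5.84 and -4.58 in Ov4Carbo4 and 5.17, 5.36 and 5.48 in Ov4Carbo7. Here all 3 Ov4Carbo replicates, at 4.31, 4.12 and 4.98, were near Ov4Carbo7. FAM20A, TFPI, C4orf19, MDFIC, C2CD4A, LINC01322, CXCL5, STK26 and NLGN1 completed, with ABCB1, the list of the 12 largest rises, with differences from 10.15 down to 7.17. FAM20A is a pseudokinase of the secretory pathway and TFPI an inhibitor of the tissue factor pathway of coagulation.

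PASD1 (ENSG00000166049, X chromosome), a cancer-testis gene, was the largest fall. It read 3.88, 3.82 and 3.93 in Ov4Carbo4 and -7.00, -2.29 and -7.75 in Ov4Carbo7. Replicate 2 of Ov4Carbo7 was well above the other two, yet all 3 lay far below Ov4Carbo4. The difference was -9.55 (SE 0.98, adjusted p = 7.61e-06), and -3.88 when 1 was added to each RPKM. TMEM100, a membrane protein known as a target of BMP signalling in endothelium, read 1.55, 1.54 and 1.5 against -6.31, -6.45 and -6.60, a difference of -7.98, or -1.94 with 1 added to each RPKM. Among the 12 largest falls were also CRABP1, a retinoic acid binding protein, CNTFR, the receptor subunit for ciliary neurotrophic factor, the serine protease PRSS21, the ubiquitin ligase CBLC and the giant cadherin FAT3. PLCL1 fell from 4.46, 4.03 and 4.20 to -2.88, -1.83 and -1.71, and the parental line had a mean of -5.07.

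**Figure D2:**
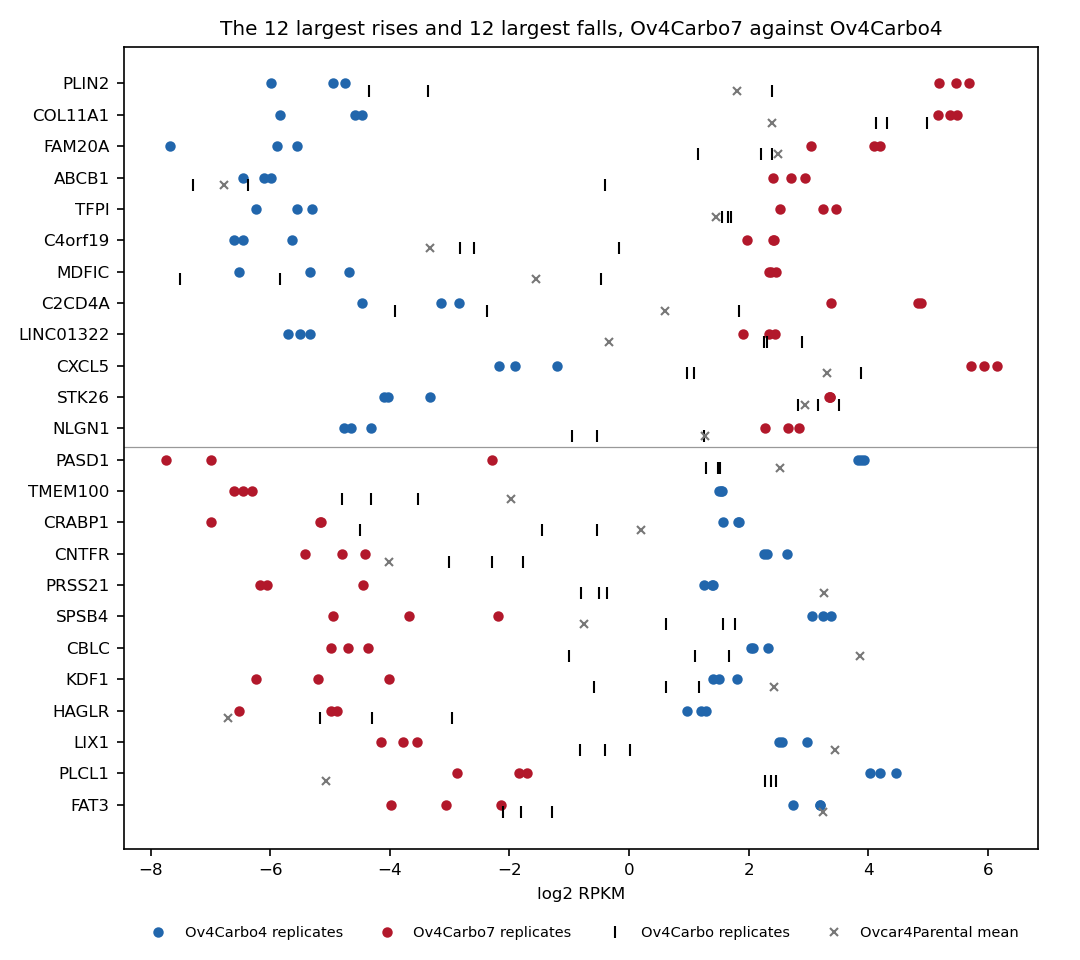
Log2 RPKM (x axis) of the 12 genes with the largest rise (top) and the 12 with the largest fall (bottom) in Ov4Carbo7 against Ov4Carbo4. They were chosen among called genes of sufficient level whose replicates do not overlap, so the blue and red points are apart by choice. Filled points are the 3 replicates of each clone, ticks the 3 Ov4Carbo replicates and crosses the mean of the parental line. Ticks and crosses fall on either side.

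Drug export was the first of the resistance-related groups. ABCB1 (ENSG00000085563, chromosome 7) encodes P-glycoprotein, which exports taxanes and anthracyclines and is not known as a platinum exporter. It read -6.00, -6.45 and -6.11 in Ov4Carbo4 and 2.41, 2.71 and 2.94 in Ov4Carbo7. In Ov4Carbo it was at -0.41 in replicate 1 and at -6.37 and -7.30 in the others, and the parental mean was -6.77. The difference between the clones was 8.87 (SE 1.24, adjusted p = 8.20e-05), which shrank to 2.87 when 1 was added to each RPKM. Of 13 genes listed under drug efflux, MVP among them, 5 were called higher and 1, ABCA3, lower, or 46.2% beside 20.9% of all genes. The median difference was 0.14 beside -0.05 over all genes. With 1 added to each RPKM 4 were called higher and 0 lower. MVP, the main protein of the vault particle, read 4.10, 4.20 and 3.96 against 6.23, 6.33 and 6.15, a 4.44-fold difference in RPKM. ABCC3, ABCC2 and ABCC5, of the multidrug resistance protein family, were higher by 1.85, 1.49 and 1.12. ABCC1, at means of 5.9 in both clones, was not called, nor was the breast cancer resistance protein ABCG2.

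Genes of thiol detoxification were higher in Ov4Carbo7 more often than lower. Of 29 genes for platinum uptake, copper handling and thiol detoxification 8 were called higher and 3 lower, or 37.9% beside 20.9% of all genes. The median difference was 0.63, and with 1 added to each RPKM 6 were called higher and 1 lower. MGST1, a membrane-bound glutathione transferase, read 1.16, 0.82 and 0.98 in Ov4Carbo4 and 6.63, 6.29 and 6.21 in Ov4Carbo7. Its 3 values were tightly grouped in both clones, and the difference of 5.39 (SE 0.16, adjusted p = 1.17e-09) was 42.0-fold in RPKM. SLC7A11, the cystine importer that supplies glutathione synthesis, read 2.09, 2.55 and 1.68 against 6.30, 6.33 and 6.49, a difference of 4.27. Ov4Carbo lay between the clones for both, with means of 5.3 and 4.9. TXNRD1, MGST3, HMOX1 and GCLM, all known as NRF2 targets or glutathione-related enzymes, were higher by 1.44, 1.45, 1.97 and 1.00. Of the 29 genes 18 were not called, further glutathione genes and NRF2 targets among them. The chloride channel subunit LRRC8D, through which platinum drugs can enter cells, and the cation exporter SLC47A1 were higher by 1.17 and 1.16. GSTM3 was lower by 2.15 on the log2 scale, and the copper exporter ATP7B and the copper transporter SLC31A2 by 1.30 and 1.09. The main copper and platinum importer SLC31A1 was not called, at means of 4.5 and 4.0. Of 6 metallothionein-related genes 3 were called higher, or 50% beside 20.9% of all genes. Among them MT2A, a cysteine-rich metal-binding protein, read 4.11, 3.25 and 3.98 against 6.08, 5.88 and 6.02. Metallothionein genes resemble each other in sequence, so reads may be split among them. The call of MT1A was lost without replicate 2 or 3 of Ov4Carbo4 or replicate 1 of Ov4Carbo7. On the log2(RPKM + 1) scale 1 of the 6 was called.

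Crosslink repair genes differed little. Of 43 genes 2 were called, both lower in Ov4Carbo7, or 4.65% beside 20.9% of all genes. The median difference was -0.30. FANCC, of the Fanconi anemia core complex, read 3.88, 3.76 and 3.87 in Ov4Carbo4 and 2.26, 2.07 and 2.28 in Ov4Carbo7, a difference of -1.63. The parental mean, 2.64, was nearer to Ov4Carbo7. FANCF, of the same complex, differed by -1.04, and this call was lost without replicate 3 of either clone. BRCA2 had means of 2.8 and 1.8 and BRCA1 of 3.4 and 3.0, and neither was called. Among 26 genes known to be induced after DNA damage 4 were called higher and 1 lower, together 19.2% beside 20.9% of all genes. Among those higher, GDF15 read 4.46, 6.34 and 3.83 against 8.27, 8.12 and 7.76. The death receptor FAS read 0.28, -0.08 and -0.36 against 2.90, 2.89 and 2.92. BTG2, an antiproliferative gene, was the 1 called lower, at 4.86, 7.07 and 4.85 against 3.92, 3.66 and 2.89. Replicate 2 of Ov4Carbo4 was far above its other replicates, and without it BTG2 was not called (-1.37, adjusted p = 0.132). The call was also lost without replicate 2 or 3 of Ov4Carbo7 (adjusted p = 0.0545 and 0.0969). CDKN1A, an inhibitor of cyclin-dependent kinases, had means of 3.4 and 1.7 and was not called.

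Among regulators of apoptosis 5 of 26 were called higher and 1 lower, together 23.1% beside 20.9% of all genes. BIRC3, an inhibitor of apoptosis and NF-kB target, read -1.23, -0.75 and -1.06 in Ov4Carbo4 and 2.99, 4.03 and 3.32 in Ov4Carbo7. CASP1, the inflammasome caspase, was higher by 4.75 and CASP4 by 1.53, and the BH3-only genes HRK and PMAIP1 by 2.93 and 1.61. BMF, another BH3-only gene, went the other way, at 1.59, 1.44 and 1.45 against -1.81, -1.83 and -2.30. BCL2, BCL2L1, MCL1, BAX and BAK1 were not called. Without replicate 1 of Ov4Carbo4 or replicate 2 of Ov4Carbo7 the number called lower was 2.

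Proliferation genes leaned lower in Ov4Carbo7 by small amounts. Of 40 genes 39 had a lower mean in Ov4Carbo7 and the median difference was -0.48. But only 2 were called, or 5% beside 20.9% of all genes. CDK1, the mitotic kinase, read 6.62, 6.41 and 6.67 against 5.34, 5.38 and 5.41, and MCM7, of the replicative helicase, read 7.38, 7.31 and 7.38 against 5.82, 6.32 and 6.30. Both were named by a rule that asks for replicates apart between the clones. MKI67 read 7.36, 7.21 and 7.25 against 6.02, 6.27 and 6.69, a difference of -0.95 that did not reach the minimum. The number called lower was 4, MKI67 among them in the latter case, without replicate 2 of Ov4Carbo4 or without replicate 3 of Ov4Carbo7. Of 18 G1 regulators only MYCN was called (5.56%), lower by 4.46 at levels under 1 in both clones. In the 6 samples alone, or without replicate 3 of Ov4Carbo4, 2 were called. CDKN2A and CCND1 were not called, and CDKN2A overlapped between the clones.

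The hypoxia and glycolysis list gave one of the clearest separations. Cells short of oxygen stabilise HIF transcription factors, which raise genes for glucose uptake, glycolysis and blood vessel growth. Of 34 genes 18 were called higher in Ov4Carbo7 and 0 lower, or 52.9% beside 20.9% of all genes. The median difference was 1.15. NDRG1 (ENSG00000104419, chromosome 8), a hypoxia-responsive stress gene, read 1.90, 1.79 and 1.86 in Ov4Carbo4 and 7.60, 7.82 and 8.19 in Ov4Carbo7. That was a 65.0-fold difference in RPKM (log2 difference 6.02, SE 0.60, adjusted p = 6.12e-06). ADM, a vasodilator peptide, read 1.54, 2.01 and 1.64 against 5.46, 5.16 and 5.61. EGLN3, an oxygen sensor that is itself a HIF target, read 2.41, 2.19 and 2.08 against 5.95, 5.68 and 5.89. These 3 are the list's largest differences among members whose replicates do not overlap, so the gap between the clones was part of the choice.

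The same list held the transcription factor EPAS1 (HIF-2 alpha), higher by 3.37, the mitophagy receptor BNIP3 by 2.60, and VEGFA by 1.57. Among glycolytic genes, ALDOC was higher by 2.52, PDK1 by 2.42, ENO2 by 2.16, HK2 by 1.85, the glucose transporter SLC2A1 by 1.64 and LDHA by 1.25. GAPDH read 8.72, 8.70 and 8.70 against 9.76, 9.76 and 9.76, a 2.08-fold difference. Equal values at such a level reflect a rank near the top of the quantile-normalized table, and several GAPDH pseudogenes were in the table too. ACTB, another common reference gene, differed by -0.06 and was not called. HIF1A, with means of 6.3 and 7.1, PGK1 and ALDOA had higher means that did not reach the minimum difference. ANGPTL4 went against the list, with means of 1.9 and -0.3. It was not called, but it was lower by the same rule on the log2(RPKM + 1) scale, where 17 members were called higher. As a list, the median of each sample relative to the mean of the 5 lines was -0.38, -0.36 and -0.33 in Ov4Carbo4 and 0.68, 0.73 and 1.06 in Ov4Carbo7. The 9 samples of the other lines lay between -0.34 and 0.11, so on this measure the Ov4Carbo7 samples stood above every other sample.

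**Figure D3:**
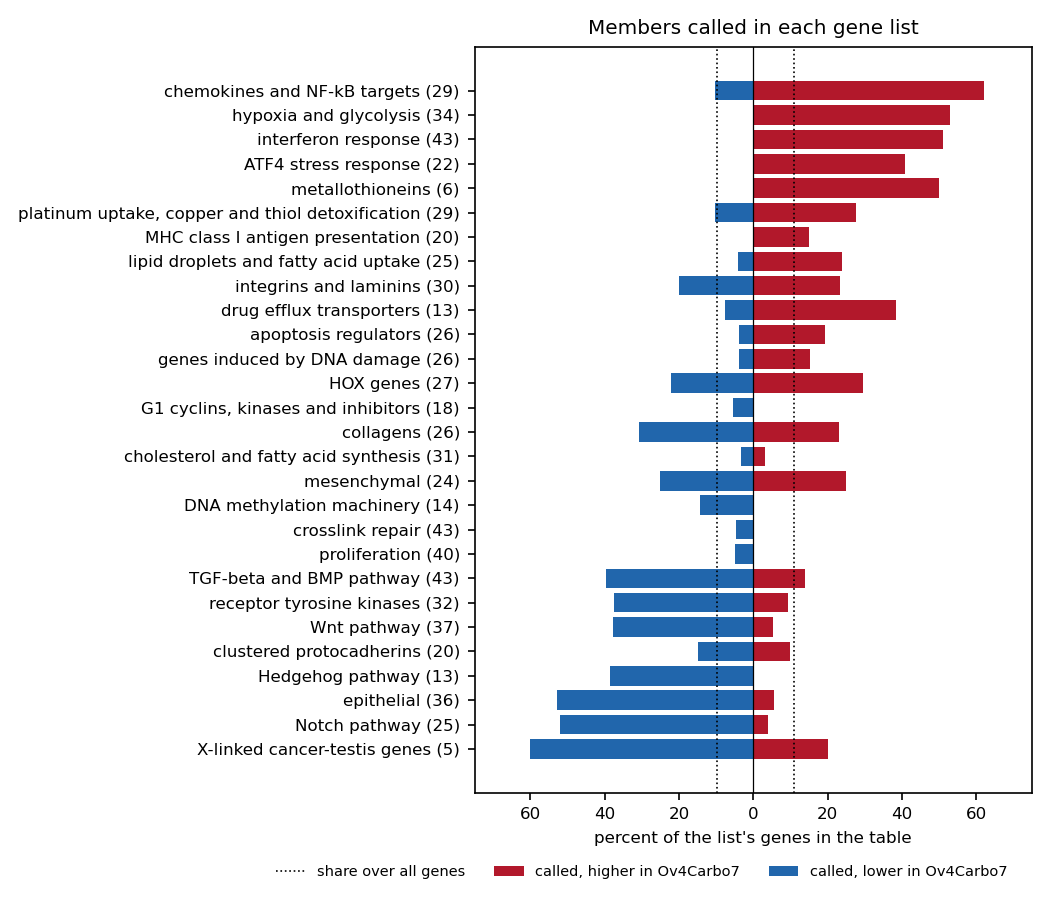
Percent of each list's genes in the table (number in brackets) that were called higher (red, right) or lower (blue, left) in Ov4Carbo7, ordered by the list's median difference; dotted lines mark the shares over all genes, 11.1% and 9.86%. Among lists of over 20 genes those of chemokines, hypoxia, interferon response and the ATF4 response extend furthest to the right, and the Notch, epithelial, Wnt and TGF-beta lists to the left.

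Genes of the integrated stress response, which the factor ATF4 drives under amino acid shortage or endoplasmic reticulum stress, were also higher in Ov4Carbo7. Of 22 genes 9 were called higher and 0 lower, or 40.9% beside 20.9% of all genes. The median difference was 0.94. NUPR1 (ENSG00000176046, chromosome 16), a small stress-induced chromatin protein, read 1.52, 2.65 and 1.16 in Ov4Carbo4 and 7.98, 7.49 and 7.08 in Ov4Carbo7, or 53.6-fold. STC2, a secreted glycoprotein, read 2.92, 3.39 and 2.80 against 6.22, 6.28 and 6.64. TRIB3 was higher by 3.12, the leucine transporter SLC7A5 by 2.39, CEBPB by 1.66 and DDIT3 (CHOP) by 1.67. ATF4 itself, ASNS and PSAT1 were not called. Replicate 2 of Ov4Carbo4 was the highest of its clone for NUPR1, STC2, TRIB3 and DDIT3, and the list's median in it was -0.13, against -0.91 and -0.81 in the other replicates. Even so it lay below the 0.46 to 0.48 of Ov4Carbo7. Ov4Carbo spread over -0.38, 0.63 and 1.01, more widely than the difference between the clones' nearest samples.

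Genes of lipid droplets and fatty acid uptake, the list that holds PLIN2, were called at 28% against 20.9% of all genes. Of 25 genes 6 were called higher and 1 lower, and the median difference was 0.40. G0S2, an inhibitor of the lipase PNPLA2, read -5.04, -3.30 and -3.30 in Ov4Carbo4 and 1.09, 1.84 and 0.80 in Ov4Carbo7. MGLL, which splits monoglycerides, read 3.75, 3.70 and 3.58 against 6.44, 6.41 and 6.30. ACSL1, which activates fatty acids, was higher by 2.11, and the hormone-sensitive lipase LIPE was lower by 2.26. PLIN3, PNPLA2, DGAT1 and DGAT2 were not called, so the list did not move as 1 body. In cholesterol and fatty acid synthesis 2 of 31 genes (6.45%) were called, SC5D higher by 1.25 and another lower, and the median was -0.11. Without replicate 2 of Ov4Carbo4 3 were called higher.

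Interferon-stimulated genes, which signalling from interferon receptors switches on, were higher in Ov4Carbo7. Of 43 genes 22 were called higher and 0 lower, or 51.2% beside 20.9% of all genes. A higher mean was found in 42, and the median difference was 1.15. With 1 added to each RPKM 16 were higher and 0 lower, and the median was 0.73. Without replicate 2 of Ov4Carbo7 the called number was 14, with 0 lower. IFI27 (ENSG00000165949, chromosome 14), an interferon-induced membrane protein, read 1.38, 1.40 and 1.16 in Ov4Carbo4 and 5.93, 5.76 and 5.20 in Ov4Carbo7, a difference of 4.32. OAS2, a sensor of double-stranded RNA, read -1.28, -1.47 and -1.43 against 1.53, 2.56 and 1.44. IFI44 read 0.64, 0.79 and 0.90 against 3.90, 3.93 and 3.66. These 3 were named by a rule that asks for replicates apart between the clones. Replicate 2 of Ov4Carbo7 was the highest for OAS2.

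IFIT1, IFIT2 and IFIT3, which bind foreign RNA, were higher by 1.95, 1.98 and 1.30, IFIH1 (MDA5) by 2.32 and ISG15 by 1.26. STAT2, IRF9, IRF1 and MX1 were not called. Replicate 1 of Ov4Carbo, which stood apart from its line, exceeded both clones on this list, with a median of 1.66 relative to the mean of the 5 lines, while replicates 2 and 3 read 0.03 and -0.18. The Ov4Carbo7 samples read 0.66, 0.92 and 0.59 and the Ov4Carbo4 samples -0.48, -0.28 and -0.48.  Of 20 genes of MHC class I presentation 3 were called higher and 0 lower, 15% beside 20.9% of all genes. They were TAPBPL, the class I transactivator NLRC5 and the immunoproteasome subunit PSMB8, at differences of 1.83, 1.49 and 1.02. The call of PSMB8 was lost without replicate 3 of Ov4Carbo4 or replicate 1 or 2 of Ov4Carbo7. HLA-B, HLA-C and B2M had higher means in Ov4Carbo7 but were not called.

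The promoters of 2 called members are shown because their letters hold the interferon-stimulated response element, the site through which interferon raises its target genes. The sequences are RefSeq's, 250 bases before and 50 after the transcript start on GRCh38.p14, for IFI27 at chr14:94110486-94110785 (plus strand) and IFIT1 at chr10:89392373-89392672 (plus strand). Capitals mark TTTC, any 2 bases and TTTC again, on either strand.
IFI27: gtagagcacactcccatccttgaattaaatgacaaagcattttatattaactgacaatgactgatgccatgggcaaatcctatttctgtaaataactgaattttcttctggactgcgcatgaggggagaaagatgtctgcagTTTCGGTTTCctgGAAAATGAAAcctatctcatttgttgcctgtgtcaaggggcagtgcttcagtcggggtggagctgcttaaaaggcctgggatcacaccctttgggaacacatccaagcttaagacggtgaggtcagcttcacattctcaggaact
IFIT1: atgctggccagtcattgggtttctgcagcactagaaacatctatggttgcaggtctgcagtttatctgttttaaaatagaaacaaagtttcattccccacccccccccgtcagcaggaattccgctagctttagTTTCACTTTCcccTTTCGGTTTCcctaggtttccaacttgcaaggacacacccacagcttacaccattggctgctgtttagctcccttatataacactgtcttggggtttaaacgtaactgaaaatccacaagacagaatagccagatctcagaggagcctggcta
Promoters were matched by symbol for 33 of the 43 members, and 27 of their 44 promoters (61.4%) held a match, against 449 of the 16254 promoters of all genes (2.76%). Of the 33 members with a promoter 23 had it, and of the 15 called ones 11. The list was made of known interferon-stimulated genes, so its share of matches does not bear on the difference between the clones. A match describes the letters and is not a measured binding site.

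Chemokines and other NF-kB targets showed the highest share of called members among the pathway lists with more than 20 genes. NF-kB is the factor through which interleukin-1 and TNF raise inflammatory genes. Of 29 genes 18 were called higher and 3 lower, or 72.4% beside 20.9% of all genes. The median difference was 2.08. On the log2(RPKM + 1) scale 13 were higher and 1 lower with a median of 0.94. CXCL8 (ENSG00000169429, chromosome 4), which attracts neutrophils, read -1.09, -0.95 and -1.05 in Ov4Carbo4 and 5.54, 5.85 and 5.85 in Ov4Carbo7. The difference of 6.78 (SE 0.24, adjusted p = 3.02e-09) was 5.20 on the log2(RPKM + 1) scale. CXCL5 read -1.20, -2.17 and -1.91 against 5.71, 6.15 and 5.94, and CXCL1 read 1.20, 1.34 and 0.64 against 4.87, 5.55 and 5.11. CXCL8 and CXCL5 were named by a rule that asks for non-overlapping replicates, and CXCL1 after its values were seen. In all 3 chemokines the low clone was Ov4Carbo4. Parental means were 5.4 for CXCL8, 3.30 for CXCL5 and 5.2 for CXCL1, so the level of Ov4Carbo7 was the one near the parental line for CXCL8 and CXCL1.

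IL18 read -1.35, -1.16 and -1.09 against 3.91, 3.57 and 3.81, and IL6 was higher by 4.71, LIF by 2.38 and the adhesion receptor ICAM1 by 2.33. IL1A and IL1B were higher by 2.49 and 1.69 at low levels. Receptors of the interleukin-1 family, which lie side by side on chromosome 2, were higher as well: IL1R2 by 4.31, IL1R1 by 2.78, IL1RL2 by 2.64 and IL18R1 by 1.91. CXCL16, IL11 and CXCL12 were the 3 called lower, by 1.44, 1.41 and 1.13 on the log2 scale. NFKB2 was higher by 1.22, while NFKB1, RELB and NFKBIA were not called. Over the samples the list's median relative to the 5 lines was -1.05, -0.86 and -1.30 in Ov4Carbo4 and 0.57, 0.91 and 0.45 in Ov4Carbo7, and the parental samples read 0.40, 0.55 and 0.47.

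Promoters of the 3 chemokines, neighbours on chromosome 4, are shown for the NF-kB site they hold. Capitals mark matches to GGNNTTTCC, where N is any base, on either strand, in CXCL8 at chr4:73740319-73740618 (plus strand), CXCL5 at chr4:73998628-73998927 (minus strand) and CXCL1 at chr4:73869143-73869442 (plus strand), all on GRCh38.p14 from RefSeq.
CXCL8: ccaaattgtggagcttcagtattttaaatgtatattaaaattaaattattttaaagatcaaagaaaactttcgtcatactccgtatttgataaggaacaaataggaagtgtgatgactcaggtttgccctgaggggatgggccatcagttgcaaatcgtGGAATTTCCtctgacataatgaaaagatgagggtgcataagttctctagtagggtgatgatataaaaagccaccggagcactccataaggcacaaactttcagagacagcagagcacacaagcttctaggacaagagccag
CXCL5: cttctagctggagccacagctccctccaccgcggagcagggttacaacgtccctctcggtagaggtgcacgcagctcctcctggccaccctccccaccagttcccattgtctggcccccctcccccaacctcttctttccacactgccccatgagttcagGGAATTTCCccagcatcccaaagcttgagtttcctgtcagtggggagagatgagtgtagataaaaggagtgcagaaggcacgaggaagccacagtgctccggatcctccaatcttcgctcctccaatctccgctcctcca
CXCL1: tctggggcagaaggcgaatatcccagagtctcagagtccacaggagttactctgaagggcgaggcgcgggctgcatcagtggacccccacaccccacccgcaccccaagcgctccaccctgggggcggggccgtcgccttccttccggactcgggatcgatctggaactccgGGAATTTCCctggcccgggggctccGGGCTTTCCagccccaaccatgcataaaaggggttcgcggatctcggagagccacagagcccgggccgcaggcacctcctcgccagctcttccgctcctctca
The motif was in 15 of 26 promoters of the list (57.7%), which cover 21 of its 29 members, against 1072 of all 16254 promoters, 6.6%. Of those 21 members 14 had it, and of the 17 called ones 10. For the hypoxia list the HIF core ACGTG was in 21 of 50 promoters (42.0%) against 25.2%. For the ATF4 list TGATGNAA was in 4 of 26 (15.4%) against 2.02%. None of those 4 belonged to a called member, since the genes were ASNS, ATF3, CHAC1 and SLC3A2. These lists were drawn up from genes known for each response, so their shares of matches do not bear on the difference between the clones. Among the 16254 promoters matches of the first 2 motifs shared bases in 12, and those of any other pair in at most 8.

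**Figure D4:**
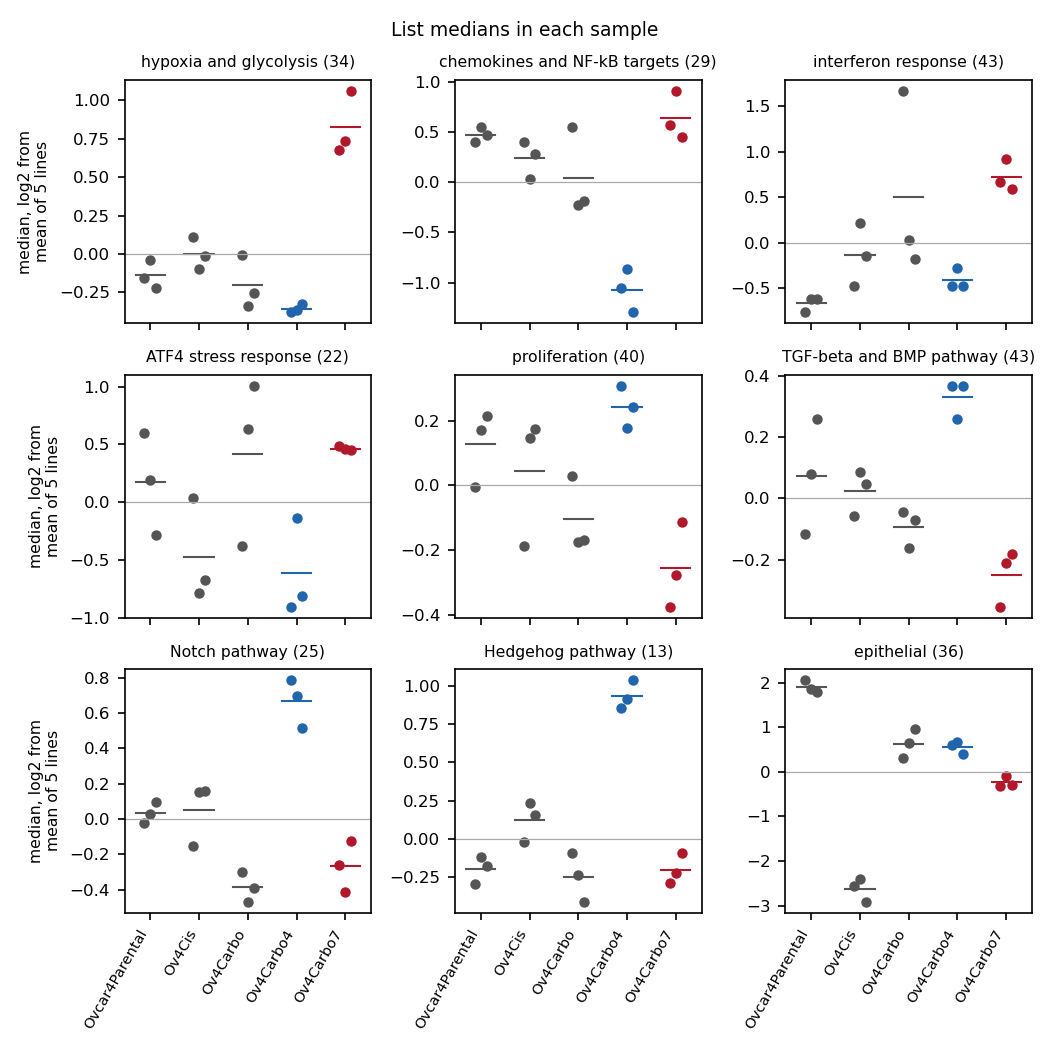
Median over the genes of 9 lists in each of the 15 samples, as log2 difference from the mean of the 5 line means (y axis); points are replicates, bars the mean of 3. In the hypoxia panel the Ov4Carbo7 points (red) lie above all others, in the Notch and Hedgehog panels the Ov4Carbo4 points (blue) do, and in the epithelial panel both clones lie below the parental line.

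Epithelial genes were lower in Ov4Carbo7. Of 36 genes 19 were called lower and 2 higher, or 58.3% beside 20.9% of all genes. The median difference was -1.17. With 1 added to each RPKM 13 were lower and 2 higher, and the median was -0.71. GRHL2, a transcription factor that maintains the epithelial state, read -0.37, -0.51 and -0.53 in Ov4Carbo4 and -6.37, -6.05 and -7.13 in Ov4Carbo7. It was already low in Ov4Carbo4, given a parental mean of 3.43, and on the log2(RPKM + 1) scale the difference was -0.77 and not called. ESRP1, an epithelial splicing regulator, read 3.47, 3.39 and 3.32 against -0.82, -0.23 and -1.0. The membrane protease ST14 (matriptase) read 4.01, 3.69 and 3.77 against -0.43, 1.00 and 0.04, and its inhibitor SPINT1 differed by -2.56. EPCAM read 5.28, 5.16 and 5.26 against 3.06, 3.04 and 2.93, and CDH1 (E-cadherin) read 3.52, 3.93 and 3.41 against 1.75, 2.29 and 1.37. All of these were apart between the clones, which for ESRP1, ST14 and SPINT1 was a condition of being named. Only GRHL2 had values near the lowest of the table in Ov4Carbo7.

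Claudins CLDN3, CLDN4 and CLDN7 differed by -1.54, -1.92 and -1.57. MAL2, a membrane trafficking protein, and the desmosomal plakophilin PKP3 were the 2 called higher, by 2.16 and 1.46. Keratins KRT7, KRT8, KRT18 and KRT19 and the desmosomal genes DSP and JUP were not called. The list's median relative to the 5 lines was 0.61, 0.68 and 0.41 in Ov4Carbo4 and -0.33, -0.09 and -0.29 in Ov4Carbo7, against 1.81 to 2.06 in the parental samples. Ov4Carbo read 0.30, 0.65 and 0.96, within or beside the range of Ov4Carbo4.

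Mesenchymal genes did not rise in step. Of 24 genes 6 were called higher and 6 lower, or 50% beside 20.9% of all genes. The median difference was -0.12. FN1, fibronectin, read -4.98, -4.95 and -4.77 in Ov4Carbo4 and 1.58, 2.14 and 2.16 in Ov4Carbo7, and the collagen crosslinker LOX read 2.22, 2.06 and 2.10 against 5.79, 6.08 and 6.23. WNT5A and LOXL2 were higher by 1.83 and 1.39. TNC, tenascin C, went the other way, at 4.54, 4.20 and 4.58 against -1.67, 1.01 and -0.98, and so did MYL9, at 3.71, 2.99 and 3.50 against -2.87, 1.07 and -2.74. For both, replicate 2 of Ov4Carbo7 was nearest to Ov4Carbo4. SPARC, MMP2 and the receptor kinase AXL were lower by 1.88, 1.73 and 1.54 on the log2 scale. VIM read 8.35, 8.03 and 8.38 against 8.15, 8.21 and 8.26, overlapping, and ZEB1, a repressor of epithelial genes, differed by 0.89, under the minimum.

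Collagens split in the same way, with 6 of 26 called higher and 8 lower, or 53.8% beside 20.9% of all genes. On the log2(RPKM + 1) scale 3 were called higher and 5 lower. The median difference of -0.09 became 0.07 without replicate 1 of Ov4Carbo4 or replicate 2 of Ov4Carbo7. COL5A1 read 5.50, 5.27 and 5.43 in Ov4Carbo4 and -1.17, 0.32 and -0.38 in Ov4Carbo7. COL6A1 and COL6A2, neighbours on chromosome 21, differed by -2.15 and -2.40, while COL6A3, which pairs with them in collagen VI, was higher by 5.23 from values near the lowest of the table. COL4A3 and COL4A4, basement membrane chains, were both higher. COL4A3 read -3.23, -5.21 and -4.63 against 1.11, 0.74 and 1.08, and COL4A4 read -3.80, -3.31 and -3.40 against 2.17, 2.20 and 2.61. The 2 genes lie head to head on chromosome 2, and their promoter windows, on opposite strands of GRCh38.p14 at chr2:227164374-227164673 for COL4A3 (plus strand) and chr2:227164156-227164455 for COL4A4 (minus strand), overlap. They are shown because the genes moved together, with capitals for the 82 bases that both windows share, each written on its own strand.
COL4A3: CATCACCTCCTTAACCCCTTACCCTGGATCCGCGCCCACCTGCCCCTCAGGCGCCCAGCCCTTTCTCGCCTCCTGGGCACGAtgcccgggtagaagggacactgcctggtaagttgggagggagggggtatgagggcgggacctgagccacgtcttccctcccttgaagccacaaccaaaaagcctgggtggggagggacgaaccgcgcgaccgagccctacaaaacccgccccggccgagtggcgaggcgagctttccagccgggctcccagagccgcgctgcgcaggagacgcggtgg
COL4A4: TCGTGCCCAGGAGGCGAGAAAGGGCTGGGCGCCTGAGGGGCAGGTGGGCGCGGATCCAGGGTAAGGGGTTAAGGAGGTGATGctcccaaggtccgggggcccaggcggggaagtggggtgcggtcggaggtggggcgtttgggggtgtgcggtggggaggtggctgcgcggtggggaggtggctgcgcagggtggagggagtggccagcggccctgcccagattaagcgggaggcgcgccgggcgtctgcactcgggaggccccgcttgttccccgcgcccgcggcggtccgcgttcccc
Among 30 integrins and laminins 7 were called higher and 6 lower, or 43.3% beside 20.9% of all genes. On the log2(RPKM + 1) scale 4 were called higher and 3 lower. LAMA2, a laminin chain, read -0.95, -1.38 and -1.12 against 2.36, 2.45 and 2.16, the leukocyte integrin subunit ITGB2 read 0.11, -0.08 and -0.25 against 2.85, 3.12 and 3.13, and ITGB6 was lower by 2.77 on the log2 scale.

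Markers of the serous lineage diverged too. Of 10 measured, 5 were called lower and 2 higher, or 70% beside 20.9% of all genes. MUC16, which encodes the clinical marker CA125, read 4.62, 4.16 and 4.0 in Ov4Carbo4 and -0.44, 0.50 and -0.70 in Ov4Carbo7, with a parental mean of 4.60. WFDC2, which encodes the marker HE4, and the transcription factor EMX2 were lower by 2.35 and 2.20 on the log2 scale, and SOX17 by 1.05. WT1 was lower by 1.97 at levels below -1.9 in all 6 samples. MUC1 and FOLR1 were higher by 1.84 and 2.01. PAX8 differed by 0.89 and was not called. Of the fibroblast markers, THY1 and LUM were called higher, with means of -0.22 and -1.73 in Ov4Carbo7 (not so on the log2(RPKM + 1) scale), and COL1A1, COL1A2 and PDGFRB were not called. CDH5, an endothelial cadherin, read 4.59, 4.31 and 4.36 against 3.09, 2.96 and 3.19, while VWF and KDR had means below 0 in both clones. SST, the peptide hormone somatostatin, read 0.08, 0.03 and 0.46 in Ov4Carbo4 and 6.10, 5.77 and 4.47 in Ov4Carbo7. Ov4Carbo exceeded both clones at 7.79, 9.62 and 8.19, and the parental mean was -3.23. Of the 5 neuroendocrine markers 2 were called higher, SST and CHGA, and 1 lower, NCAM1, by 5.26, 3.03 and 1.31 on the log2 scale. Of the 3 endothelial markers CDH5 was the 1 called, and of the 2 blood cell markers measured 1 was called higher and 1 lower, and neither was called with 1 added to each RPKM.

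Developmental signalling pathways were lower in Ov4Carbo7 for most of their called members. In the Notch pathway ligands on a cell release the receptor's intracellular domain in its neighbour. Of its 25 genes 13 were called lower and 1 higher, or 56% beside 20.9% of all genes. The median difference was -1.41. When 1 was added to each RPKM 9 were called lower and 0 higher, and the median was -0.82. Among receptors NOTCH1 and NOTCH3 differed by -1.75 and -1.47, and NOTCH2 was not called. Among ligands JAG2, JAG1 and DLL3 differed by -1.85, -1.49 and -1.46. The target genes NRARP, HES1 and HEY1 were lower as well. NRARP read 3.06, 2.92 and 3.18 against 0.86, 0.75 and 0.60, HES1 read 6.2, 6.51 and 6.58 against 4.89, 3.86 and 4.51, and HEY1 read 4.01, 3.22 and 4.04 against 2.06, 1.87 and 1.64. Each was apart between the clones, as were 3468 of the 3478 called genes. DTX4 was the member called higher, by 2.50. The list's median relative to the 5 lines was 0.79, 0.70 and 0.51 in Ov4Carbo4 and -0.26, -0.41 and -0.13 in Ov4Carbo7, near the -0.30, -0.47 and -0.39 of Ov4Carbo. On this list, then, the clone apart from the other lines was Ov4Carbo4.

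All 13 measured genes of the Hedgehog pathway had a lower mean in Ov4Carbo7. Of these 5 were called, or 38.5% beside 20.9% of all genes, and 2 on the log2(RPKM + 1) scale. GLI3 read 3.75, 3.85 and 3.83 against 1.92, 2.32 and 2.14, the coreceptor BOC read 2.70, 2.87 and 2.84 against 1.12, 1.23 and 1.14, and GLI2 and the receptor PTCH1 differed by -1.44 and -1.29. GLI1, at means of -0.7 and -2.1, and SMO, at 4.1 and 3.1, were not called, and no Hedgehog ligand was in the table. The list's median was 0.86, 0.91 and 1.04 in Ov4Carbo4, above the -0.41 to 0.24 of the 12 other samples.

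In the Wnt pathway 14 of 37 genes were called lower and 2 higher, or 43.2% beside 20.9% of all genes. The median difference was -0.69. On the log2(RPKM + 1) scale 8 were called lower and 2 higher, and the median was -0.42. Ligands WNT10B, WNT6, WNT2B, WNT11 and WNT7A were lower, and WNT5A and WNT7B were the 2 higher. WNT7A had the highest level of these ligands in Ov4Carbo4, at 5.79, 5.68 and 5.78 against 4.23, 4.46 and 4.44. Receptors FZD3, FZD4 and FZD2 differed by -1.81, -1.41 and -1.34, and the target genes NKD1, AXIN2 and NOTUM by -2.21, -1.14 and -1.77. TNFRSF19, a TNF receptor family member listed as a Wnt target, read 2.95, 2.55 and 2.74 against -2.68, -3.99 and -2.50. CTNNB1, which encodes beta-catenin, was not called.

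The TGF-beta and BMP list had 17 of 43 genes called lower and 6 higher, or 53.5% beside 20.9% of all genes. The median difference was -0.65. The 4 ID genes, immediate targets of BMP receptors that encode inhibitors of differentiation factors, were all called lower. ID1 read 8.70, 8.85 and 8.74 in Ov4Carbo4 and 6.76, 6.99 and 6.63 in Ov4Carbo7, and ID3 read 7.72, 7.49 and 7.59 against 4.59, 5.01 and 4.68. ID2 and ID4 differed by -2.56 and -1.67, and the inhibitory SMAD6 and SMAD7 by -1.56 and -1.16. BMP4, TGFB1, LTBP1 and the coreceptor ENG were lower by 1.58, 1.02, 3.24 and 1.93 on the log2 scale. CHRD, the BMP antagonist chordin, moved opposite to the targets, at -0.81, -0.18 and -0.73 against 5.12, 4.72 and 4.05, and the antagonist GREM1 was higher by 2.27. The type I receptor ACVRL1 and the coreceptor TGFBR3 were higher by 2.11 and 1.57. Without replicate 3 of Ov4Carbo7 the number called higher was 3.

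Of 32 receptor tyrosine kinases 12 were called lower and 3 higher, or 46.9% beside 20.9% of all genes. A lower mean was found in 22, and the median difference was -0.69. ERBB4 read 4.82, 5.28 and 5.09 in Ov4Carbo4 and 1.48, 1.65 and 2.19 in Ov4Carbo7, and EPHA1 read 3.0, 2.76 and 2.81 against -0.81, -0.58 and -0.58. The fibroblast growth factor receptors FGFR3, FGFR2 and FGFR1 differed by -2.75, -2.65 and -1.07, and the ephrin receptor EPHB4 by -1.98. INSR, the insulin receptor, was higher, at 1.23, 1.25 and 1.37 against 4.23, 4.17 and 4.13, and EPHA3 and EPHB1 rose from means of -3.07 and -3.97. On the log2(RPKM + 1) scale INSR was the 1 receptor called higher. EGFR, ERBB2, MET and IGF1R were not called.

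HOX genes, which encode positional identity and lie in 4 clusters, differed by cluster. Of 27 measured, 51.9% were called, beside 20.9% of all genes. The 8 called higher were all of the HOXA cluster on chromosome 7. Of the 6 called lower 4 belong to the HOXC cluster, and the others were HOXD1 and HOXB8. HOXA13 read -1.48, -1.13 and -1.16 against 1.14, 1.40 and 1.75, and HOXA3 read 1.39, 1.36 and 1.27 against 3.40, 3.10 and 3.06. Among the HOXA genes HOXA6, HOXA7 and HOXA9 were not called. The antisense transcript HOTAIRM1, of the same cluster, was higher by 1.05. Whether the counting used strand is not given in the sources used here, so reads of such overlapping pairs cannot be told apart. HAGLR, a transcript of the HOXD cluster, was among the 12 largest falls, and on the log2(RPKM + 1) scale 3 HOX genes were called higher and 0 lower. Of 14 genes of the DNA methylation machinery 2 were called (14.3%, beside 20.9% of all genes). Both were lower, TET1 by 1.93 and TET3 by 1.29 on the log2 scale. Of 20 clustered protocadherins, neuronal adhesion genes, 2 were called higher and 3 lower (5 without replicate 2 of either clone). Together these were 25%, beside 20.9% of all genes. Of 5 cancer-testis genes of the X chromosome 1 was called higher and 3 lower (80% in all), PASD1 among them. On the log2(RPKM + 1) scale no protocadherin was called, and PASD1 was the 1 cancer-testis gene called.

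Differences were not limited to low genes. Of 409 genes with a mean of at least log2 RPKM 7 in a clone, 57 (13.9%) were called, 40 higher and 17 lower. Ceruloplasmin, CP, a copper-binding ferroxidase, read 1.22, 1.08 and 0.96 in Ov4Carbo4 and 7.38, 7.66 and 7.42 in Ov4Carbo7. Its pseudogene CPP moved with it, so reads may be split between them. Complement C3 read 3.11, 3.14 and 2.76 against 7.64, 8.26 and 7.80, and SPP1, osteopontin, read 5.69, 5.28 and 5.57 against 8.82, 8.95 and 8.61. The thioredoxin-binding TXNIP was higher by 2.95 and the transferrin receptor TFRC by 1.43. Ferritin heavy chain FTH1 was higher by 1.20, with several of its pseudogenes, and its reads are uncertain for that reason. FTH1 also read 10.26 in each sample of Ov4Carbo7, and such equal values reflect a rank near the top of the quantile-normalized table. On the lower side stood the scaffold NEDD9, at 7.09, 7.10 and 6.90 against 4.21, 4.19 and 4.12, the early response gene EGR1 by 2.39 on the log2 scale, SOX4 by 1.5 and the tubulin TUBA1A by 1.73.

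Some genes were switched, that is, at or above log2 RPKM 1 in all 3 samples of a clone and under -3 in all 3 of the other. In Ov4Carbo7 27 genes were on that were off in Ov4Carbo4, and 15 were the reverse. The first set held PLIN2, COL11A1, ABCB1, FAM20A, TFPI, FN1, COL4A4, the kinase PRKD1, the phospholipase PLA2G4A, the engulfment gene ELMO1 and the sodium-calcium exchanger SLC8A1. The second held TMEM100, CRABP1, CNTFR, PRSS21, CBLC, KDF1, LIX1 and SOCS2. Ov4Carbo had 7 of the 27 genes on in all 3 replicates and 0 off, with the other 20 between the limits or mixed. Of the 15 genes 0 were on in Ov4Carbo, 2 were off and 13 were between or mixed. Parental cells had 9 of the 27 on and 4 off, and 4 of the 15 on and 3 off. With limits of 0 and -2 the numbers were 105 and 84, and with 2 and -4 they were 8 and 2. Promoters of the genes on in Ov4Carbo7 had a median of 17 CG dinucleotides in 300 bases (22 genes with a RefSeq promoter), those of the other set 26.5 (10 genes), and all genes a median of 28. These are descriptions of small sets, and DNA methylation was not measured.

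The source population lay between its clones for most of the called genes, and so did the parental line and Ov4Cis. The Ov4Carbo mean was between the means of the clones for 2564 of 3478 genes (73.7%), and nearer to Ov4Carbo7 for 51.6%. With replicate 1 of Ov4Carbo alone the nearer clone was Ov4Carbo7 for 58.1%, and with replicates 2 and 3 for 47.7%. By the mean of replicates 2 and 3 Ov4Carbo lay between the clones for 68.0%. The parental mean lay between the clones for 64.2% and was nearer to Ov4Carbo7 for 44.3%. The mean of Ov4Cis, which is not the source, lay between the clones for 66.5%. Neither clone was thus the nearer one to the parental line or to the source for nearly all genes. These shares are descriptions, since the samples of the clones also chose the genes.

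Neighbouring genes often differed in the same direction. Over the 11987 placed genes with a mean of at least log2 RPKM 1 in the 15 samples, chromosome medians of the difference ran from 0.33 on chromosome 3 and 0.27 on chromosome 11 to -0.39 on chromosome 21 and -0.40 on chromosome 9, around -0.05 for all. Over these genes 7.57% were called higher and 6.01% lower. Of the 721 genes on chromosome 3, 121 (16.8%) were called higher and 21 (2.91%) lower. On chromosome 9, 25 of 491 (5.09%) were called higher and 54 (11%) lower.

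Medians over 50 neighbouring genes went further. The stretches named here were picked from the 5 highest and 5 lowest of these medians, so their size follows from the choice. Over all 16604 genes 7822 had a higher and 8782 a lower mean in Ov4Carbo7. From CCDC51 to MANF on chromosome 3 the median was 0.90, and 45 of 50 genes were higher in Ov4Carbo7. Relative to the mean of the 5 lines, this stretch stood at -0.66 in Ov4Carbo4 and between 0.11 and 0.20 in the other 4 lines, so the line apart was Ov4Carbo4. Among its genes RHOA, a small GTPase of the cytoskeleton, read 4.80, 4.76 and 4.69 in Ov4Carbo4 and 6.31, 6.37 and 6.39 in Ov4Carbo7, and the peroxidase GPX1 differed by 1.32. Chromosome 6 had a stretch of the same kind from HBS1L to LRP11, with a median of 0.88 and Ov4Carbo4 at -0.72 against 0.13 to 0.18 elsewhere. From EXOSC2 to AGPAT2 on chromosome 9 Ov4Carbo4 was apart upwards, at 0.56 against -0.25 to -0.02, and the median difference was -0.78. The stretch from ACTN4 to EXOSC5 on chromosome 19 had the lowest median, -0.90, with 47 of 50 genes lower in Ov4Carbo7. There the line apart was Ov4Carbo7, at -0.65 against 0.04 to 0.28. AXL and TGFB1 lie in this stretch, in a run of 6 genes called lower. On chromosome 14, from FERMT2 to WDR89, the median was -0.72, with Ov4Carbo4 at 0.27 and Ov4Carbo7 at -0.34, on both sides of the other lines. SDs between replicates of a clone in the 5 stretches named here ran from 0.0095 to 0.070, the latter in Ov4Carbo7 on chromosome 9, and reached 0.104 in Ov4Carbo on chromosome 19. DNA copy number was not analysed here.

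**Figure D5:**
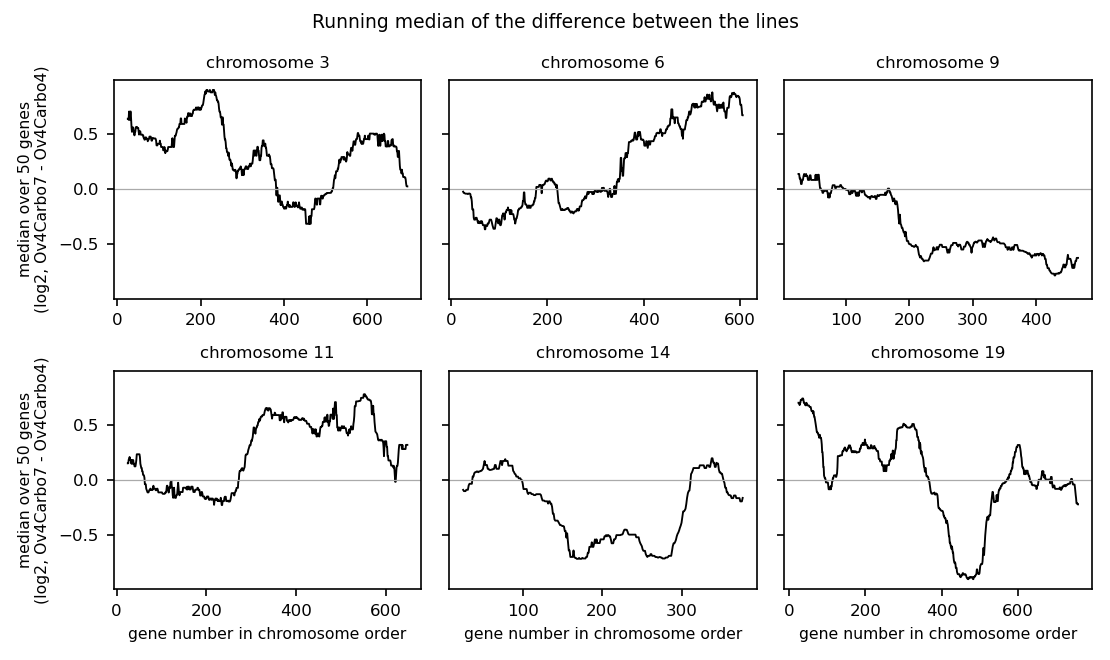
Running median of the log2 difference between the clones (Ov4Carbo7 minus Ov4Carbo4, y axis) over 50 neighbouring genes of mean log2 RPKM at least 1, against the number of the gene in chromosome order (x axis), for 6 chromosomes. The curves hold long plateaus on either side of 0, reaching 0.90 on chromosome 3 and -0.90 on chromosome 19.

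Short runs of neighbours added to this. There were 43 runs of at least 4 adjacent genes that moved the same way and were called, 32 of higher and 11 of lower genes, with 187 genes in all. The chemokine run on chromosome 4 held RASSF6, CXCL8, CXCL6, CXCL1, CXCL5 and CXCL3. VNN1 and VNN2, pantetheinases on chromosome 6, rose from low values by 7.49 and 5.01. GATA6, an endoderm transcription factor, read -0.47, -0.84 and -0.71 against 3.76, 3.55 and 3.74, and its antisense neighbour GATA6-AS1 was higher by 6.19. ALDH1A3, which makes retinoic acid, was higher by 4.78, and the aldo-keto reductases AKR1C1, AKR1C2 and AKR1C3, close copies among which reads may be split, by 5.03, 2.78 and 2.37. A lower run on chromosome 9 held PBX3, a HOX cofactor, at 3.23, 3.17 and 3.30 against 0.54, 0.45 and 0.78, and LMX1B. Genes in a run share their region and are not independent observations.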

How the data were processed

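RNA of cultured cells was sequenced after polyA capture, per the labels' protocols. The authors deposited log2 RPKM values after conditional quantile normalization, a method that takes account of length and GC content, as the name of the table states. Per the submitters' processing notes BWA 0.7.15-r1140, HTSeq and the build hg19/GRCh37 were used, and the rule of a threshold in the table's name is not given in the sources used here. That the logarithm has base 2 was checked on the values. Depth is unknown. All 16604 genes and 15 samples, a coefficient for each of the 5 lines, were fitted with limma 3.58.1 in R 4.3.3 (default settings, two-sided, Benjamini-Hochberg over all genes). Genes low in a clone have log2 differences that depend on the authors' offset, so log2(RPKM + 1) was run as an alternative and is given for some of them. No replicate number pairs samples in this fit.

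Symbols matched 16448 genes, and GENCODE v29 placed 16499. That annotation is of GRCh38, so gene coordinates are not printed except those of RefSeq promoters, found for 11161 genes. The named genes are the 12 largest rises and falls among called genes of non-overlapping replicates with a higher mean of at least log2 RPKM 1, the 3 largest such differences of each list and 17 genes named in any case. Other genes were named after their values were seen. The comparison and the 28 pathway and 5 marker lists were chosen with earlier results of these data known, and no list was tested. On simulated data of 16604 genes, 185 of 200 genes changed by 2 log2 units were recovered, with 4 false calls among the unchanged genes. The simulation drew normal noise around 1 mean per gene, with the SD pooled over the lines and no other line differences. It does not give the rate of false calls in the real data. Figures were made with matplotlib 3.10.9. Some genes of the lists, 2 of those named in any case among them, are not reported here by name.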

Additional observations from a re-analysis of the deposited data

How the results depend on the processing

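Low values and the threshold moved the counts most. Called genes numbered 1746 (977 higher, 769 lower) on the log2(RPKM + 1) scale and 1645 (916 and 729) among the 12037 genes of mean log2 RPKM at least 1. They numbered 8484 (3981 and 4503) with no minimum difference and 1353 (730 and 623) with a minimum of 2. Switched genes numbered 105 on in Ov4Carbo7 and 84 on in Ov4Carbo4 with limits of 0 and -2, and 8 and 2 with limits of 2 and -4. Leaving out each replicate in turn gave 3303 to 3548 called genes (1735 to 1876 higher, 1567 to 1672 lower) and 28 to 32 and 15 to 22 switched genes. A clone with a replicate left out has fewer samples to meet the switch limits, so these switched counts do not measure stability. With the 6 samples of the clones only 3586 were called, with quantile normalization 3538, with centring on the sample median 3477, with a variance trend 3486, with a term for the title series 3548, with log2(RPKM + 0.1) 3196, and in a fit of 12 samples without Ov4Carbo, added after the data were seen, 3563. Every gene called in both the main comparison and any of these fits kept its direction. Of 109 named genes 97 kept their side of the call in every one of the 26 settings in which they were tested, and 0 reversed.

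Replicate numbers did not pair the samples: deviations of same-numbered samples from the means of their clones correlated between -0.14 and 0.17. With a replicate block 3444 genes were called, 1823 higher and 1621 lower, and in the 6 samples with the block 3569. Depth is unknown, so what it limits was not measured. The p-values rest on the spread between replicates pooled over the 5 lines, Ov4Carbo included, and cover no spread between clones. For PLIN2 the SD between replicates was 0.67 in Ov4Carbo4, 0.26 in Ov4Carbo7 and 3.64 in Ov4Carbo, beside an SE of 1.28.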
